A study of Mus musculus with 10 samples.

Results

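The collagen genes were followed through mouse embryonic stem cells differentiating over 24 days, with and without keratinocyte growth factor and a dexamethasone and cAMP treatment. They were taken as every gene whose symbol is Col, a number, a and a number, and which was measured by a probe set annotated to a single gene. This gave 42 collagen genes among 18193 genes measured. They comprised 11 genes of fibrillar collagens, 6 of type IV or basement membrane collagen, 3 of network-forming collagens, 9 of FACIT collagens (fibril-associated collagens with interrupted triple helices), 5 of the beaded-filament collagen VI, 2 multiplexins, 1 anchoring fibril collagen, 4 transmembrane collagens and Col26a1, which was put in none of these classes. The 42 genes were represented by 82 probe sets, and 27 genes had several. Where a gene had several, the one brightest on average across the arrays stood for it.

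Collagens are extracellular proteins whose chains wind around each other in a helix, so that one protein often needs the products of several genes. Fibrillar collagens assemble into the tensile fibrils of connective tissue, FACIT collagens sit on the surface of those fibrils, and type IV collagen forms the sheet beneath epithelia and endothelia. In the lung, fibrils made by mesenchymal cells carry the mechanical load of the alveolar wall, while the alveolar epithelium rests on a type IV basement membrane.

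The cells were of the C57BL/6 strain, and total RNA was hybridised to 10 Affymetrix arrays. At day 8 of differentiation there was 1 control array and 1 with keratinocyte growth factor (KGF, or FGF7, an epithelial mitogen), and at days 17 and 24 there was 1 array each for control, KGF, DCI, and KGF with DCI. DCI is taken here as the dexamethasone plus raised cAMP of the series title, which asks whether the treatments together support differentiation into alveolar type II cells. No condition had a replicate array, so that errors below measure the departure of the 10 arrays from additive effects of day, KGF and DCI, and the number of arrays limits the precision. Whole cultures were measured, and a lower value from fewer cells of a type cannot be told apart from less RNA per cell.

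The cells are labelled by their origin as embryonic stem cells, and 4 pluripotency genes, chosen after the data were seen, were looked up. On the 10 arrays Pou5f1 lay between log2 3.93 and 6.24 and Zfp42 between 4.32 and 6.43, below the median of all values (6.67). Nanog lay between 4.48 and 6.85, above that median on the day 17 KGF and DCI array alone, and Sox2, which neural cells also express, lay above it on all arrays, between 7.39 and 8.86. The log2 of the summed linear levels of 9 macrophage markers was 8.33 to 8.43 at day 8, and from day 17 on 12.56 to 13.11 without DCI and 9.96 to 11.11 with DCI. Summed levels of other lists below are taken in the same way, and the brightest genes weigh most in them. On the day 8 control array the 3′ minus 5′ difference of dap, a bacterial RNA added as a labelling control, was 5.34, against 1.91 on the day 8 KGF array. The cells' own RNA stood apart on the day 8 control array too, where the 3′ minus 5′ difference was 1.05 for Actb and 0.44 for Gapdh. Elsewhere it ranged from 0.46 to 0.62 and from -0.02 to 0.12. For Actb it was 0.52 and 0.48 at day 17 without DCI and 0.62 and 0.61 with DCI. At day 24 Actb gave 0.49 and 0.51 without DCI and 0.59 and 0.54 with DCI. Gapdh gave 0.08 and 0.03 without and 0.12 and 0.05 with DCI at day 17. At day 24 it gave 0.02 and -0.01 without and 0.03 and 0.04 with DCI. The part of these shifts with DCI in the results was not tested. At day 17 the dap difference was 2.004 and 1.990 without DCI and 2.998 and 2.946 with DCI. The dap control thus moved with DCI at that day, and its part in the results was not tested beyond the covariate given below. At day 24 the dap difference lay between 1.49 and 1.74.

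All levels are log2 values, and a difference of 1 is a 2-fold change. Where values of a condition are given as a pair, the array without KGF comes first and the array with KGF second. A difference was called when limma's moderated test, adjusted by Benjamini-Hochberg over the 18193 genes, gave an adjusted p under 0.05. "Higher" and "lower" below refer to called differences unless values are given instead, and errors are standard errors (SE) of that fit.

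Collagen genes varied more across the arrays than most genes did. The range from the lowest to the highest array had a median of 1.78 among the 42 collagen genes and of 0.77 among all genes, and 31 collagen genes had a range of at least 1. It was widest for the FACIT gene Col9a1 (4.51) and narrowest for Col6a5 (0.34). Without DCI, 10 collagen genes had their highest mean at day 8, 14 at day 17 and 18 at day 24. Shares of all genes were not taken for the count of 31 or for these counts by day. The counts by day include genes that varied little, such as Col6a5. A set of 15 collagen genes lay below the median of all values on every array, among them Col2a1, Col10a1, Col4a3 and Col4a4, and differences of such dim genes are compressed.

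**Figure D1:**
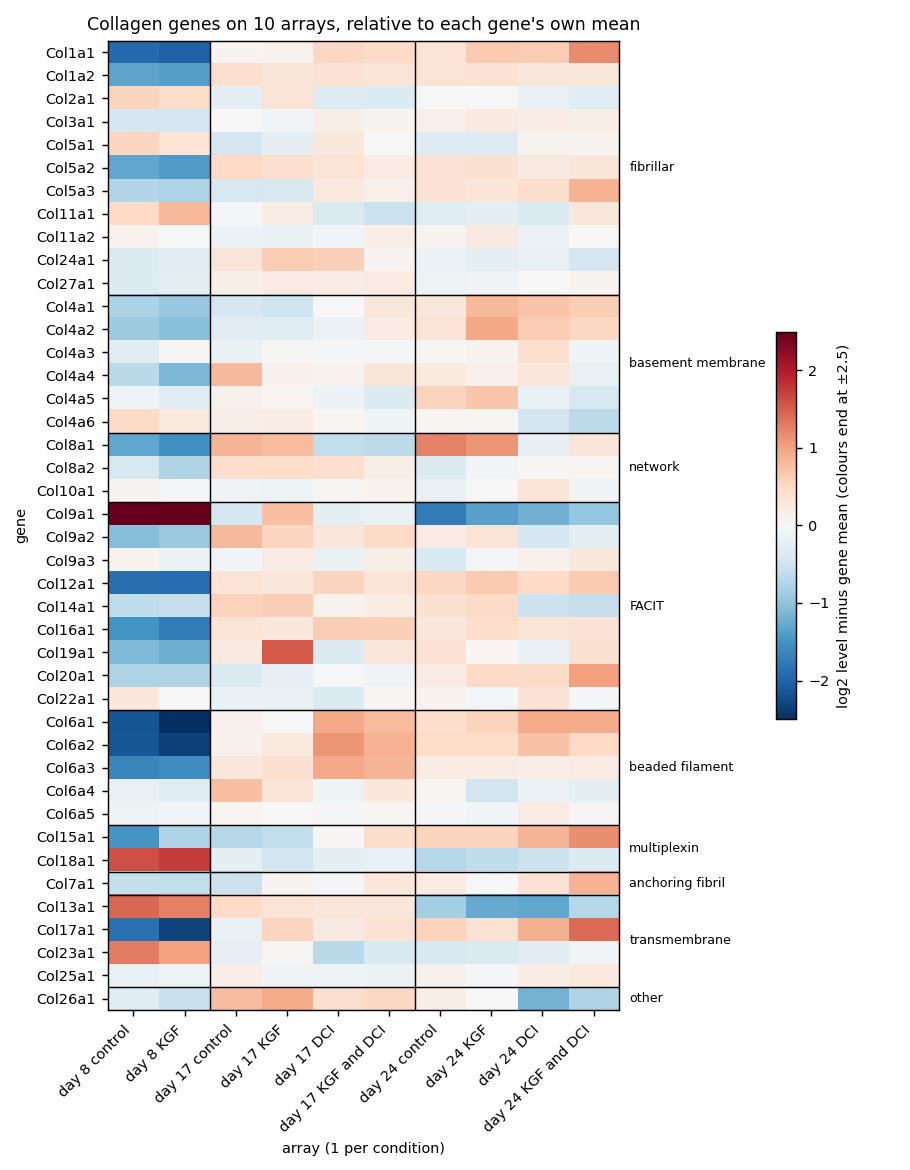
Log2 level of each of the 42 collagen genes (rows, grouped by class) on each of the 10 arrays (columns, 1 per condition), as the difference from that gene's own mean over the arrays. Colours end at ±2.5. Most fibrillar, FACIT and collagen VI rows change from blue to red between day 8 and day 17, while Col9a1, Col13a1, Col18a1 and Col23a1 run the other way.

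Between day 8 and day 17 most collagen genes rose. Of the 42, 25 were higher and 7 lower at day 17, 32 in all, where 42.4% of all genes tested were called (21.4% higher and 21.0% lower). The median difference was 0.49 among the collagen genes and -0.02 among all genes. The largest rises were those of the collagen VI genes Col6a2 (2.57) and Col6a1 (2.52), the FACIT gene Col12a1 (2.24) and the network collagen gene Col8a1 (2.14). Col9a1 fell by 2.72 and the multiplexin gene Col18a1 by 2.05. Leaving out the day 8 control array, which stood apart in the dap, Actb and Gapdh signals, 26 of the 32 were still called, all with the same sign, and single differences moved by between -0.26 and 0.37. Leaving out the day 8 KGF array gave 25.

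From day 17 to day 24 the changes went both ways and were smaller. There were 10 collagen genes higher and 12 lower at day 24, 22 in all, where 37.3% of all genes were called (14.8% higher and 22.5% lower). The median difference was 0.02 among the collagen genes and -0.01 among all genes. Col15a1, Col4a1 and Col4a2 rose most, and Col13a1, Col9a1 and Col26a1 fell most. With the arrays without DCI alone, 15 collagen genes were called, where 18.5% of all genes were called in that fit.

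**Figure D2:**
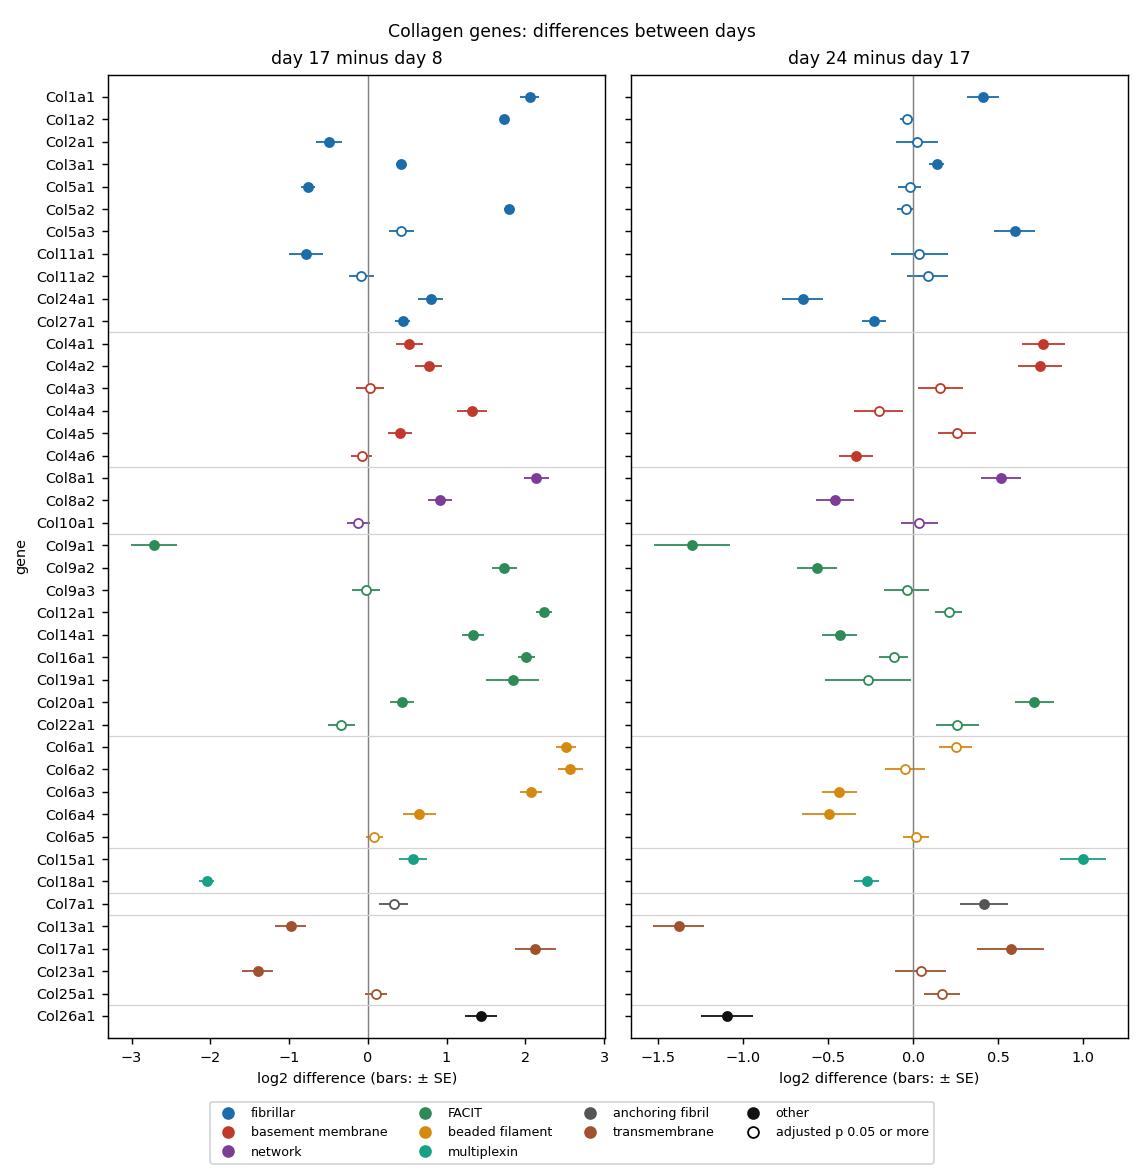
Differences of the 42 collagen genes between day 17 and day 8 (left) and between day 24 and day 17 (right) on the log2 scale, with bars of ± 1 SE from the additive model over 10 arrays. Filled points passed an adjusted p under 0.05, colours give the class, and the horizontal scales of the panels differ. The points of Col6a1 and Col6a2 lie at 2.52 and 2.57 on the left and at 0.25 and -0.05 on the right.

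With DCI 6 collagen genes were higher and 6 lower. These 12 of 42 compare with 15.4% of all genes called for DCI (7.27% higher and 8.09% lower), and the median difference was 0.06 among the collagen genes and -0.01 among all genes. Higher with DCI were Col15a1, Col6a1, Col6a2, Col5a3, Col5a1 and Col1a1, and lower were Col8a1, Col26a1, Col14a1, Col4a5, Col9a2 and Col4a6. For each of the 12, all 4 matched pairs of arrays had the same direction. Only Col8a1 changed by more than 2-fold. Leaving out 1 array at a time left between 8 and 12 collagen genes called. Without the day 24 control array there were 8.

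**Figure D3:**
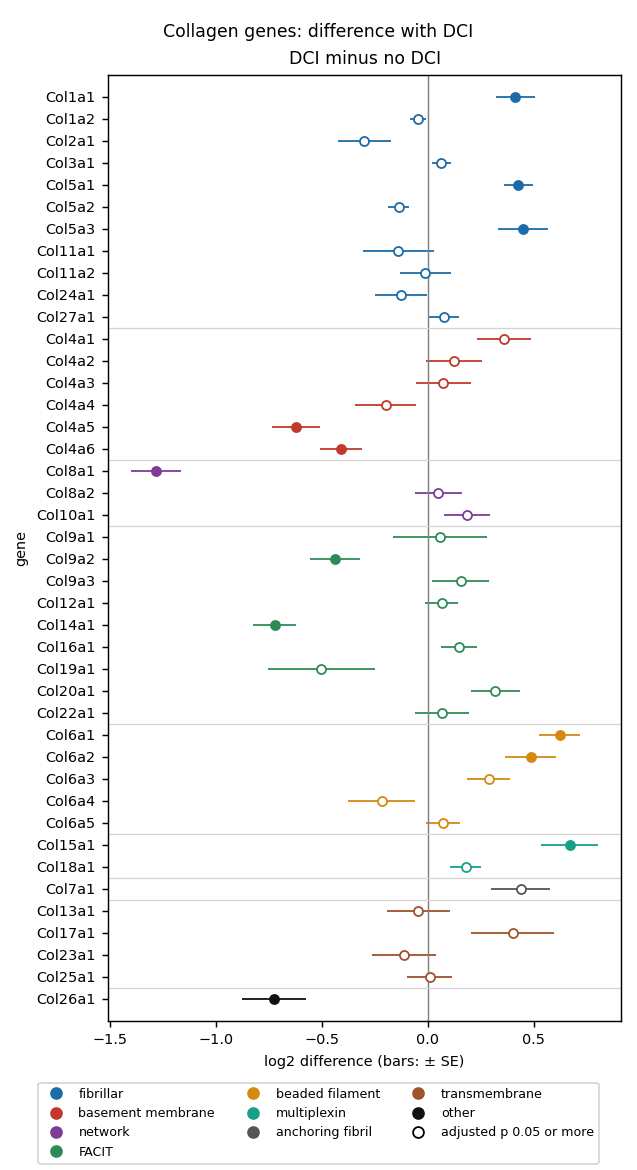
Difference between arrays with and without DCI for the 42 collagen genes on the log2 scale, with bars of ± 1 SE from the additive model over 10 arrays. Filled points passed an adjusted p under 0.05 and colours give the class. Col8a1 lies at -1.28, apart from the other genes, and members of the type IV, fibrillar and FACIT classes lie on both sides of 0.

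Among the 11 fibrillar genes 6 were higher and 3 lower at day 17, 3 higher and 2 lower at day 24 against day 17, and 3 higher and 0 lower with DCI. Of all genes 21.4% were higher and 21.0% lower, 14.8% and 22.5%, and 7.27% and 8.09% in these comparisons. Counts of the other classes and lists below stand against the same shares, and some lie near them. Col1a1, Col1a2, Col3a1 and Col5a2 rose early, while Col5a1 fell. Col1a1, which encodes the major chain of type I collagen, read 8.88 and 8.80 at day 8, 10.89 and 10.90 at day 17 without DCI and 11.32 and 11.30 with DCI. Its day 24 values were 11.15 and 11.47 without DCI and 11.45 and 11.99 with DCI. All late arrays lay above both day 8 arrays, and each of the 4 arrays with DCI lay above its partner without it, although the groups overlapped at day 24. Its differences were 2.06 ± 0.12 from day 8 to 17, 0.41 ± 0.09 from day 17 to 24 and 0.41 ± 0.09 for DCI (adjusted p = 0.0131). A second Col1a1 probe set rose by 1.91 to day 17 but gave 0.08 for DCI, and the DCI call was lost without the day 24 control array.

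Col1a2, for the partner chain of type I collagen, followed the rise but not the DCI difference. It read 11.98 and 11.93 at day 8 and between 13.59 and 13.73 on all 8 later arrays, a rise of 1.73 ± 0.05 to day 17 (adjusted p = 1.96e-09). For DCI it gave -0.05 ± 0.04. These late values are close to the highest value on any array (14.26), and a second Col1a2 probe set, at a mean level of 12.16, rose by 2.69. The same holds for Col3a1, which encodes the chain of type III collagen found with type I in soft tissues. Col3a1 read 13.19 and 13.19 at day 8 and between 13.54 and 13.82 later, with differences of 0.42 ± 0.06 to day 17 and 0.14 ± 0.04 to day 24. The latter call was lost without any 1 of 6 arrays, all of days 17 and 24 but day 17 DCI and day 24 KGF and DCI, and the other Col3a1 probe set rose by 0.67 to day 17.

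The chains of type V collagen, which nucleates type I fibrils and limits their width, moved apart. Col5a2 read 10.36 and 10.24 at day 8 and between 11.87 and 12.16 later, and rose by 1.79 ± 0.07 to day 17. Col5a1 read 11.46 and 11.26 at day 8, 10.50 and 10.67 at day 17 without DCI and 10.59 and 10.60 at day 24 without DCI. It was the only type I, III or V gene that fell to day 17, by 0.76 ± 0.09. With DCI it read 11.17 and 10.91 at day 17 and 11.0006 and 10.99 at day 24, above all 4 late arrays without DCI, a difference of 0.43 ± 0.07 (adjusted p = 0.00186). The other Col5a1 probe sets gave 0.28 (adjusted p = 0.0255, over all probe sets) and 0.26 (adjusted p = 0.34). For DCI, Col5a2 gave -0.14 ± 0.05, negative in 4 of 4 pairs, and did not pass (adjusted p = 0.0894), while its other probe set gave -0.32 (adjusted p = 0.0129, over all probe sets). Col5a3 was dim throughout, from 4.45 at day 8 to 6.09 at day 24 with KGF and DCI. It was higher with DCI by 0.45 ± 0.12 (adjusted p = 0.0293), a call lost without any 1 of 7 arrays, all of days 17 and 24 but day 24 DCI, and its other probe set gave -0.32.

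The remaining fibrillar genes are known for cartilage or for minor fibrils. Col2a1, the cartilage collagen gene, was at 6.37 and 6.27 at day 8 and between 5.48 and 6.13 later, and fell by 0.50 ± 0.16 to day 17. Col11a1, for a chain of the cartilage fibril collagen XI, fell by 0.79 ± 0.22 from 7.68 and 8.02, and both calls were lost without either day 8 array, that of Col2a1 also without the day 17 control, day 17 KGF and DCI or day 24 control array. Neither gene was called for DCI. Col24a1 rose by 0.80 ± 0.16 to day 17 and fell by 0.65 ± 0.12 to day 24 at levels between 2.31 and 3.36. Col27a1 rose by 0.44 ± 0.09 and fell by 0.23 ± 0.07 over the same intervals, the second call being lost without any 1 late array but day 24 KGF and DCI. Col11a2 passed in none of these comparisons. The cartilage marker list had 3 of 9 genes higher and 3 lower from day 8 to 17, and its summed level was 8.03 to 8.14 at day 8 and 7.95 to 8.74 later. Its part in these changes was not tested.

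The genes of the type IV chains lie as head-to-head pairs, Col4a1 with Col4a2, Col4a3 with Col4a4 and Col4a5 with Col4a6. Col4a1 and Col4a2 encode the chains of nearly all basement membranes, and the others those of more restricted ones. Of the 6 genes 4 were higher and 0 lower at day 17, 2 higher and 1 lower at day 24 against day 17, and 0 higher and 2 lower with DCI. Of all genes 42.4%, 37.3% and 15.4% were called in these comparisons. RefSeq promoter windows, from 250 bases before to 50 bases after a start site on assembly GRCm38.p6, were matched by symbol for 33 of the 42 collagen genes, 36 windows in all. Those of the pair that rose together and of the pair that was lower with DCI are shown 5′ to 3′ on the strand of each gene. Capitals mark the CCAAT box (CCAAT) and the GC box (GGGCGG), each on either strand, so that ATTGG and CCGCCC are their reverse complements. Col4a1 is on the minus strand at chr8:11312777-11313076, Col4a2 on the plus strand at chr8:11312555-11312854, Col4a5 on the plus strand at chrX:141475169-141475468 and Col4a6 on the minus strand at chrX:141474027-141474326.
Col4a1: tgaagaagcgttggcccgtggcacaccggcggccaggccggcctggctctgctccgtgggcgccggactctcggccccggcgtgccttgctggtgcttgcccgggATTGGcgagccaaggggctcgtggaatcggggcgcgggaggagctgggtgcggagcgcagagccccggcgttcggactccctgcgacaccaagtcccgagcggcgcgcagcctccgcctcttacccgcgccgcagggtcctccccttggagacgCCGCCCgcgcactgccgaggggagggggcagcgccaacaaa
Col4a2: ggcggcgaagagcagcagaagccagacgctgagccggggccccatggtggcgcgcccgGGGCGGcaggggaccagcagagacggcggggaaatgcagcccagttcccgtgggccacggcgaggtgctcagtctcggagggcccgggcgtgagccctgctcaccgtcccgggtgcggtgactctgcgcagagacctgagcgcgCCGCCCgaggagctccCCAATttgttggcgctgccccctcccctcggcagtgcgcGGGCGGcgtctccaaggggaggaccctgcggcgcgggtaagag
Col4a5: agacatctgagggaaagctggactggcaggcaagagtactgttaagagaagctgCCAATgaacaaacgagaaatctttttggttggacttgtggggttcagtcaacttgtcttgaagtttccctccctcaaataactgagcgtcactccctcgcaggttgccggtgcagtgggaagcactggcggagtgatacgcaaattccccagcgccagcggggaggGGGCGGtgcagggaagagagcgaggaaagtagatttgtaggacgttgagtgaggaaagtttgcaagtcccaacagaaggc
Col4a6: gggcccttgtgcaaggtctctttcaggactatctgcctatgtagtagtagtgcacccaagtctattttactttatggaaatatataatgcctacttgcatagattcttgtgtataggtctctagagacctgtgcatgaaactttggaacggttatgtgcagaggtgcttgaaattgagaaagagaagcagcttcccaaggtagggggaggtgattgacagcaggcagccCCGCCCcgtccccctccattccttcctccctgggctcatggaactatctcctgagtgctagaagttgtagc

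The annotated starts of Col4a1 and Col4a2 were 21 bases apart, and their windows shared 78 bases. Those of Col4a5 and Col4a6 were 1343 bases apart and their windows shared none. Over the 36 collagen windows, a CCAAT box was found in 36.1% (37.4% of all 32851 windows), a GC box in 61.1% (35.7% of all) and a TATA box (TATAAA) in 13.9% (13.6% of all). The palindromic glucocorticoid response element was in none of the 36 and in 0.00913% of all windows. The cAMP response element (TGACGTCA) was in 2.78%, that is 1 window, and in 1.79% of all. Shorter forms of these sites were rarer in collagen windows, AGAACA with 5.56% (19% of all) and TGACG with 11.1% (20.8% of all). These counts describe letters in short windows.

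Col4a1 and Col4a2 rose together over time. Col4a1 read 10.53 and 10.37 at day 8, 10.90 and 10.83 at day 17 without DCI and 11.31 and 11.61 with DCI. At day 24 it read 11.60 and 12.13 without DCI and 12.03 and 11.95 with DCI. Arrays of successive days did not overlap except those of day 17 with DCI and day 24. Col4a2 read 9.40 and 9.23 at day 8, 10.00 and 9.98 at day 17 without DCI and 10.14 and 10.48 with DCI, and between 10.62 and 11.24 at day 24. From day 8 to 17 Col4a1 rose by 0.53 ± 0.17 and Col4a2 by 0.77 ± 0.17, and from day 17 to 24 by 0.77 ± 0.13 and 0.75 ± 0.13. The day 8 to 17 calls rested on few arrays, since both were lost without the day 8 KGF array, and that of Col4a1 also without the day 17 control array. For DCI, Col4a1 gave 0.36 ± 0.13 (adjusted p = 0.0839) and Col4a2 gave 0.12 ± 0.13 (adjusted p = 0.617), and neither passed.

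Col4a5 and Col4a6 were both lower with DCI. Col4a5 read 10.47 and 10.32 at day 8, 10.68 and 10.63 at day 17 without DCI and 10.43 and 10.24 with DCI. Its day 24 values were 11.16 and 11.28 without DCI but 10.41 and 10.18 with DCI, no higher than the day 8 control array. The DCI difference was -0.62 ± 0.11 (adjusted p = 0.00396), a second probe set gave -0.68 (adjusted p = 0.0142, over all probe sets), and no omission of an array ended the call. Its rise to day 17, 0.41 ± 0.15 (adjusted p = 0.0466), was lost without either day 8 array, either day 17 array with DCI, or either day 24 array without KGF. Col4a6 read 7.63 and 7.39 at day 8, and at day 24 it read 7.21 and 7.19 without DCI and 6.67 and 6.51 with DCI. At day 17 it read 7.33 and 7.34 without DCI and 7.21 and 7.04 with DCI, a smaller gap in the same direction. The DCI difference of Col4a6 was -0.41 ± 0.10 (adjusted p = 0.0187). That call was lost without any one of the 4 day 24 arrays, and the other Col4a6 probe set gave -0.46 without passing (adjusted p = 0.115, over all probe sets). From day 17 to 24 Col4a6 fell by 0.33 ± 0.10, a call lost without any 1 of the 4 arrays with DCI.

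Col4a3 and Col4a4, the chains of the mature kidney and lung basement membrane, were dim. Col4a3 stayed between 3.94 and 4.62 and passed in no comparison. Col4a4 read 3.55 and 3.11 at day 8 and between 4.31 and 5.04 at day 17, a rise of 1.32 ± 0.19, and its other probe sets gave 0.05 and 0.67. Of 15 partner genes of the basement membrane, 6 were higher and 2 lower at day 17, and 7 higher and 2 lower at day 24 against day 17. The laminin chain genes Lama3 and Lamb3 rose by 1.56 ± 0.33 and 1.43 ± 0.18 to day 17 and by 1.53 ± 0.25 and 1.32 ± 0.14 to day 24. With DCI 2 of the 15 were higher and 3 lower. Nidogen 1 (Nid1), which links laminin to type IV collagen, was higher by 0.41 ± 0.06. Nidogen 2 (Nid2) was lower by 0.45, peroxidasin (Pxdn), the enzyme that crosslinks type IV collagen, by 0.48 and perlecan (Hspg2) by 0.35 on the log2 scale.

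Network-forming collagens make hexagonal sheets. Col8a1, for a chain of type VIII collagen of vessel walls and the basement membrane of corneal endothelium, had the largest DCI difference of any collagen gene. It read 6.85 and 6.63 at day 8, 8.99 and 8.94 at day 17 without DCI and 7.54 and 7.49 with DCI. At day 24 it read 9.38 and 9.25 without DCI and 7.95 and 8.45 with DCI. The 4 arrays with DCI did not overlap the 4 late arrays without it, and all lay above day 8. The difference was -1.28 ± 0.12, which is 2.43-fold lower (adjusted p = 4.99e-05). The other probe sets gave -1.12 and -0.92, and leaving out single arrays gave -1.44 to -1.21 with the call kept in 10 of 10. Between days it rose by 2.14 ± 0.16 and 0.52 ± 0.12. Its partner Col8a2 read 8.77 and 8.42 at day 8, between 9.33 and 9.62 at day 17 and between 8.81 and 9.21 at day 24. Col8a2 rose by 0.92 ± 0.15 and then fell by 0.46 ± 0.11, and its DCI difference was 0.05 ± 0.11. Col10a1, the collagen gene of hypertrophic cartilage, stayed between 3.83 and 4.32. The promoter window of Col8a1 is shown as that of the collagen gene with the largest DCI difference, from the minus strand at chr16:57754688-57754987, with its 4 GC boxes on the reverse strand in capitals. It held no CCAAT box and no TATAAA.
Col8a1: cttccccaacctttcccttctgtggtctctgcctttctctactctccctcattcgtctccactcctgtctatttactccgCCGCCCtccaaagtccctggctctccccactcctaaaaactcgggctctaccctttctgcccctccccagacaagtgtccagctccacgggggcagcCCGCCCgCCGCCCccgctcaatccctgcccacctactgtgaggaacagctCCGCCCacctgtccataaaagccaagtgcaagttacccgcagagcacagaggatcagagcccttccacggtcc

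Macrophage genes moved with these DCI differences. All 9 measured macrophage markers were lower with DCI, with a median difference of -3.01, led by Aif1 (-3.60), Cx3cr1 (-3.50) and Mrc1 (-3.09). The smooth muscle genes Tagln and Acta2 were lower, with -0.71 and -0.54, 2 of 7 markers, with a summed smooth muscle level of 12.91 to 13.19 without and 12.41 to 12.79 with DCI. Of 8 epithelial markers 4 were higher, led by Epcam (0.56 ± 0.07), and of 10 fibroblast and mesenchyme markers 1 was higher (Pdgfra, 0.36 ± 0.06) and 1 lower (Tcf21, -0.68 ± 0.16). The summed fibroblast level was 12.96 to 13.31 without and 12.92 to 13.11 with DCI. Endothelial markers had 1 of 8 lower over both days. Bone markers had 1 of 4 higher, cartilage markers 2 of 9 higher and parietal and visceral endoderm markers 1 of 10 higher. Among neural and glial markers 1 of 8 was higher and 1 lower, and 1 of 7 alveolar type II markers was higher. Of all genes 15.4% were called for DCI. The part of these cell types in the collagen differences was not tested.

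**Figure D4:**
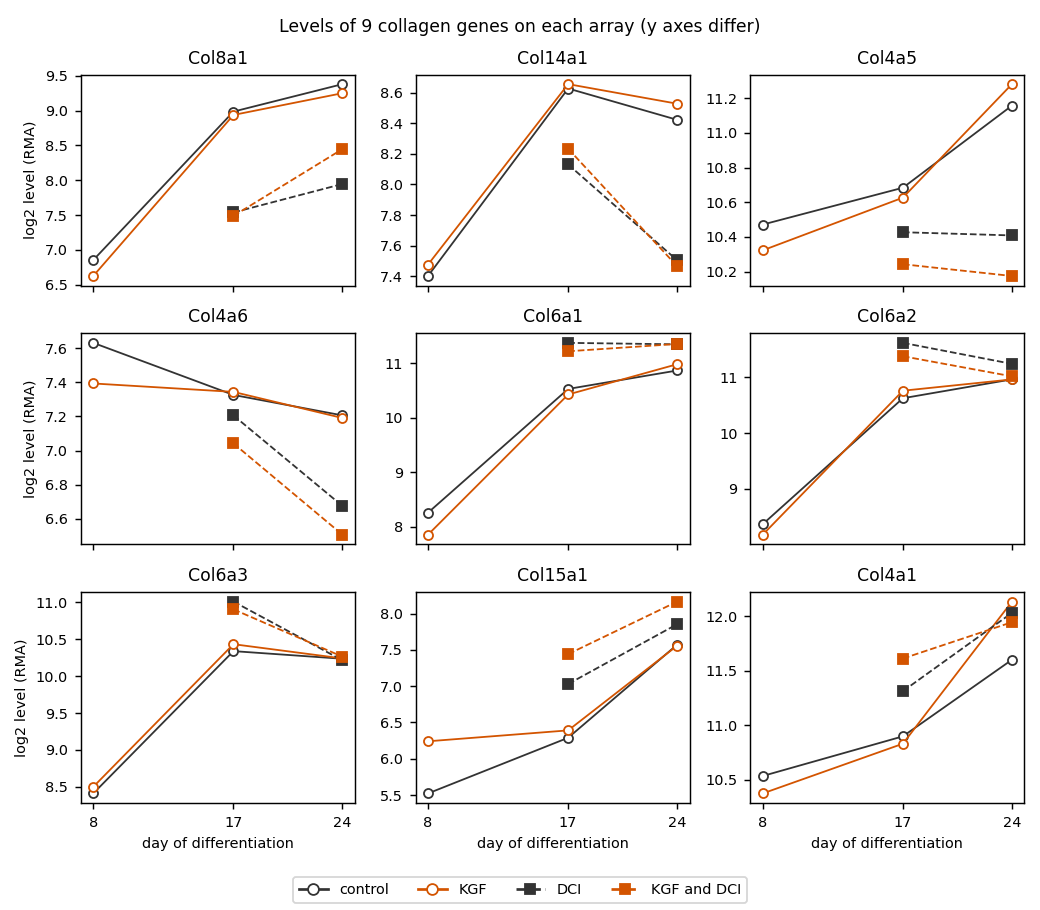
Log2 level of 9 collagen genes on each array against day of differentiation, with a scale of its own for each gene. Circles with solid lines are arrays without DCI, squares with dashed lines those with DCI, and orange marks KGF. The DCI arrays of Col8a1, Col14a1, Col4a5 and Col4a6 lie below those without DCI on both days, while those of Col6a1, Col6a2 and Col15a1 lie above.

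FACIT collagens bind to the surface of fibrils. Most of them rose early, with 6 of 9 higher and 1 lower at day 17 and 1 higher and 3 lower at day 24 against day 17. Of all genes 42.4% and 37.3% were called in these comparisons. Col12a1, found in dense connective tissue, read 6.49 and 6.47 at day 8 and between 8.64 and 9.04 later. Its rise to day 17 was 2.24 ± 0.10 (adjusted p = 5.13e-08). A second probe set gave 1.66, and the other probe sets, with mean levels of 3.03 and 3.42, gave -0.10 and 0.11. Col16a1 read 6.87 and 6.62 at day 8 and between 8.638 and 8.999 later, a rise of 2.02 ± 0.11. For DCI, Col12a1 gave 0.06 ± 0.08 and Col16a1 gave 0.15 ± 0.09.

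Col14a1, a FACIT gene whose protein regulates fibril growth, rose and was lower with DCI. It read 7.40 and 7.48 at day 8, 8.63 and 8.65 at day 17 without DCI and 8.13 and 8.23 with DCI. Its day 24 values were 8.42 and 8.53 without DCI and 7.50 and 7.47 with DCI, close to day 8. The groups did not overlap on either day. The DCI difference was -0.72 ± 0.10 (adjusted p = 0.00093), a second probe set gave -0.42 (adjusted p = 0.0218, over all probe sets), and the call was kept in 10 of 10 omissions. It rose by 1.33 ± 0.14 to day 17 and fell by 0.43 ± 0.10 to day 24.

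The chains of type IX collagen, which coats cartilage fibrils and is also made in eye and other epithelia, did not move together. Col9a1 read 8.61 and 8.43 at day 8 and between 5.41 and 6.61 at day 17, and between 4.10 and 4.88 at day 24. It fell by 2.72 ± 0.30 and then by 1.30 ± 0.22, but its other probe set, at a mean level of 5.71, gave -0.37 and -0.04. Col9a2 read 4.41 and 4.54 at day 8 and between 5.75 and 6.26 at day 17, a rise of 1.74 ± 0.15, and then fell by 0.56 ± 0.12. With DCI it was lower by 0.44 ± 0.12 (adjusted p = 0.029) at levels below the median of all values, and the call was lost without the day 17 control, day 17 DCI or any 1 day 24 array. Col9a3 passed in no comparison over days or DCI. Col19a1 rose by 1.84 ± 0.33 to day 17, where its values ran from 4.59 with DCI to 6.46 with KGF, and its other probe sets gave 2.11 and 0.12. Col20a1 rose by 0.44 ± 0.15 and 0.71 ± 0.11, the first of these calls being lost without any 1 array but day 17 KGF and DCI, day 24 control and day 24 KGF and DCI. Col22a1 gave -0.34 ± 0.17 to day 17 without passing, and its other probe sets gave -0.95 and -1.57.

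Collagen VI forms beaded filaments near basement membranes and around cells, and its main chains, encoded by Col6a1, Col6a2 and Col6a3, had among the largest rises to day 17. Col6a1 read 8.26 and 7.85 at day 8, 10.53 and 10.42 at day 17 without DCI and 11.37 and 11.22 with DCI. At day 24 it read 10.86 and 10.98 without DCI and 11.34 and 11.35 with DCI. The arrays with DCI lay above every array without it. Col6a1 rose by 2.52 ± 0.13 to day 17 and was higher with DCI by 0.62 ± 0.10 (adjusted p = 0.00154), with the DCI call kept in 10 of 10 omissions. Its promoter window is shown as that of the collagen gene with the lowest adjusted p among those higher with DCI, from the minus strand at chr10:76725995-76726294. No CCAAT box, GC box or TATA box was found in it on either strand, so that it carries no capitals.
Col6a1: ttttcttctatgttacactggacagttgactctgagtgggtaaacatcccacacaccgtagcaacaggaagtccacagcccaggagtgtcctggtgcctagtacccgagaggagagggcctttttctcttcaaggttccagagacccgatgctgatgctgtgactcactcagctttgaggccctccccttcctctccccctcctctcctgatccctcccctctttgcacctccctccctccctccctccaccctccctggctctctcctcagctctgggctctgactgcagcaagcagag

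Col6a2, the neighbour of Col6a1 on chromosome 10, read 8.37 and 8.18 at day 8, 10.62 and 10.76 at day 17 without DCI and 11.61 and 11.37 with DCI. Its day 24 values were 10.96 and 10.96 without DCI and 11.24 and 11.01 with DCI, a narrower gap than at day 17. It rose by 2.57 ± 0.16 to day 17, and its DCI difference was 0.48 ± 0.12 (adjusted p = 0.0198). That call was lost without the day 17 KGF array or either day 17 array with DCI, while the other Col6a2 probe set gave 0.54 (adjusted p = 0.00445, over all probe sets). Col6a3, for the long chain, read 8.41 and 8.50 at day 8, 10.34 and 10.43 at day 17 without DCI and 11.01 and 10.91 with DCI. At day 24 all 4 of its values lay between 10.21 and 10.26. It rose by 2.07 ± 0.14 and then fell by 0.43 ± 0.10, and over both days its DCI difference was 0.29 ± 0.10 (adjusted p = 0.0918). Col6a4 was dim, from 4.52 to 5.72. It rose by 0.65 ± 0.21 and fell by 0.49 ± 0.16, and its other probe set gave 0.10 and 0.04. The rise was lost without either day 8 array or either day 17 array without DCI, and the fall without any 1 late array but day 17 DCI and day 24 KGF and DCI. Col6a5 lay between 2.30 and 2.64 and passed in no comparison.

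The multiplexins, basement membrane collagens that carry sugar chains and release anti-angiogenic fragments, ran in opposite directions. Col15a1 read 5.52 and 6.24 at day 8, 6.29 and 6.39 at day 17 without DCI and 7.03 and 7.44 with DCI. At day 24 it read 7.57 and 7.56 without DCI and 7.85 and 8.16 with DCI. It was higher at each later day and with DCI, by 0.57 ± 0.18 to day 17, 1.00 ± 0.13 to day 24 and 0.67 ± 0.13 for DCI (adjusted p = 0.00708). The day 17 call was lost without the day 8 control or the day 17 control array, and the DCI call was kept in 10 of 10 omissions. Col18a1, whose product is cut to endostatin, read 10.99 and 11.13 at day 8, between 8.92 and 9.20 at day 17 and between 8.67 and 9.03 at day 24. It fell by 2.05 ± 0.10 to day 17 (adjusted p = 5.62e-08) and by 0.27 ± 0.07 to day 24. Its DCI difference, 0.18 ± 0.07, did not pass (adjusted p = 0.138), while its other probe set gave 0.35 (adjusted p = 0.014, over all probe sets). The endothelial markers Tek and Kdr fell by 2.97 and 2.49 to day 17 on the log2 scale, and 3 of 8 endothelial markers were lower, with a summed level of 11.39 to 11.41 at day 8 and 8.88 to 10.09 later. Their part in the fall of Col18a1 was not tested.

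Col7a1, which makes the anchoring fibrils that fasten epithelium to the tissue below, read 5.42 and 5.42 at day 8, 5.48 and 6.09 at day 17 without DCI and 5.99 and 6.30 with DCI, and between 6.02 and 6.90 at day 24. It was higher at day 24 than at day 17 by 0.42 ± 0.14, a call lost without any 1 late array but those with KGF alone. For DCI it gave 0.44 ± 0.14, positive in 4 of 4 pairs, and did not pass (adjusted p = 0.0602). Among the transmembrane collagens, Col17a1, the hemidesmosome collagen of basal epithelial cells, read 3.78 and 3.33 at day 8 and between 5.46 and 6.19 at day 17, and between 6.01 and 7.06 at day 24. It rose by 2.13 ± 0.26 and 0.57 ± 0.20, the second call being lost without the same 6 arrays. Of 8 epithelial markers 6 were higher and 2 lower at day 17, and 6 were higher at day 24 against day 17, led by Krt19 at day 17 (2.57 ± 0.11) and Cldn4 at day 24 (1.27 ± 0.08). The part of the epithelium in the rises of Col7a1 and Col17a1 was not tested.

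Col13a1, a transmembrane collagen of cell adhesion sites, fell at both steps. It read 7.22 and 7.05 at day 8, between 6.07 and 6.28 at day 17 and between 4.48 and 5.08 at day 24, with no overlap between days, and fell by 0.98 ± 0.20 and 1.38 ± 0.15. Col23a1 read 6.41 and 6.14 at day 8 and between 4.46 and 5.15 later, a fall of 1.40 ± 0.20 that its other probe sets also gave (-2.08 and -1.48). Col25a1 passed in none of the day and DCI comparisons, although its other probe set rose by 0.87 to day 17 (adjusted p = 0.0247, over all probe sets). Col26a1 read 6.65 and 6.39 at day 8, 7.71 and 7.87 at day 17 without DCI and 7.34 and 7.46 with DCI. Its day 24 values were 7.10 and 6.96 without DCI and 5.76 and 6.19 with DCI, its lowest values. It rose by 1.44 ± 0.20, fell by 1.10 ± 0.15 and was lower with DCI by 0.73 ± 0.15 (adjusted p = 0.00877). Its other probe set, at a mean level of 2.75, gave -0.00 to day 17, 0.05 to day 24 and -0.15 for DCI.

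The DCI differences were then taken within each day, in a model of the 8 arrays of days 17 and 24. At day 17, 10 collagen genes were called, 7 higher and 3 lower, where 9.64% of all genes were called (5.63% higher and 4.01% lower). At day 24, 11 were called, 5 higher and 6 lower, where 19.4% of all genes were (7.99% higher and 11.4% lower). Without the day 17 DCI array the day 17 count was 5. The day 24 count was 6 without the day 24 KGF and DCI array and 7 without either the day 24 KGF or the day 24 DCI array. For 4 collagen genes the DCI difference at day 24 was below that at day 17, and for none was it above, where 2.51% of all genes were called, 1.97% in that direction and 0.533% in the other. For Col6a2 and Col6a3 the difference was called at day 17 and not at day 24. Col6a3 gave 0.57 ± 0.07 and 0.00 ± 0.07 on the 2 days, a change of -0.57 ± 0.09 (adjusted p = 0.0125), and Col6a2 gave 0.80 ± 0.09 and 0.17 ± 0.09, a change of -0.64 ± 0.13 (adjusted p = 0.0296). Col4a5 and Col14a1 were called lower with DCI on each day, with the larger difference at day 24. Col4a5 gave -0.32 ± 0.08 and -0.93 ± 0.08, a change of -0.61 ± 0.12 (adjusted p = 0.0285), and Col14a1 gave -0.46 ± 0.08 and -0.99 ± 0.08, a change of -0.53 ± 0.12 (adjusted p = 0.0471). The day 17 call of Col4a5 was lost without any 1 of the 4 day 17 arrays, and that of Col14a1 without the day 17 DCI array. With the dap difference as a covariate their day 17 differences turned to 1.16 and 0.34, neither called. At day 17 dap separates the arrays with DCI from those without, so that this fit can hardly tell dap from DCI.

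The type IV gene Col4a1 was higher with DCI at day 17 by 0.60 ± 0.13 (adjusted p = 0.0158), a call lost without the day 17 KGF array or either day 17 array with DCI, and gave 0.12 ± 0.13 at day 24. Col17a1 was higher at day 24 by 0.69 ± 0.21 (adjusted p = 0.0431), a call kept in 3 of 8 omissions, and gave 0.11 ± 0.21 at day 17. For neither was the change between days called.

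The called changes between days rest on few arrays. Over the 8 omissions of an array the call was kept in 5 for Col6a3, in 2 each for Col4a5 and Col6a2 and in 0 for Col14a1. Leaving out single arrays left 0 to 5 collagen genes called, with 0 without the day 17 DCI, day 24 KGF or day 24 KGF and DCI array. A variance prior without a mean trend left 0, the mean of all probe sets left 1, and the second probe set of Col4a5 gave -0.17. The dap spike-in difference separated the arrays with and without DCI at day 17, so that a fit holding both can hardly tell dap from DCI. With the dap difference as a covariate, an alternative added after seeing the data, no collagen gene was called for DCI at day 17 or for the change between days. No gene at all was called in either. The additive DCI result kept all 12 collagen calls with the same covariate. Over the 10 arrays the dap difference was by far highest on the day 8 control array (5.34), which had no DCI. Keeping these calls therefore cannot settle the part of dap in the DCI result. At day 17 the parietal and visceral endoderm markers had 4 of 10 higher with DCI, and at day 24 they had 4 lower. Endothelial markers had 7 of 8 lower with DCI at day 24 and 1 higher at day 17. Among the macrophage markers named above, the DCI difference changed between days by -2.17 for Aif1 and -1.61 for Mrc1, both called. For Cx3cr1 it changed by 0.84, which was not called. The part of these cell types in the collagen changes was not tested.

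**Figure D5:**
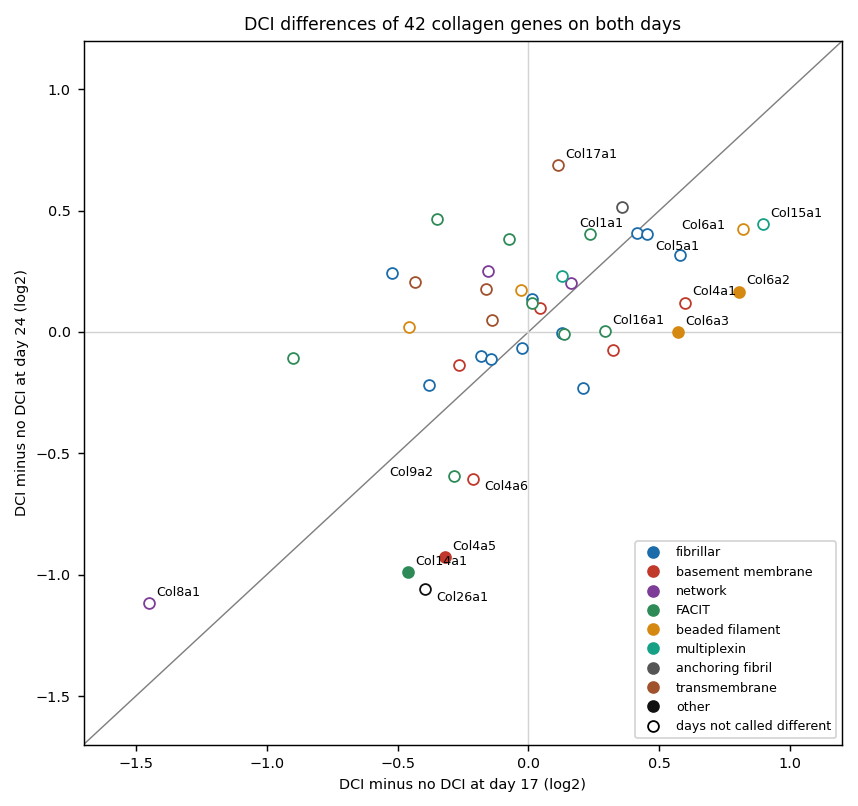
DCI difference of the 42 collagen genes at day 17 (horizontal) against that at day 24 (vertical), log2 scale, from the model of 8 arrays. Filled points are the 4 genes whose difference changed between days at an adjusted p under 0.05, names mark genes called on either day, colours give the class, and the diagonal marks equal differences. Col6a2 and Col6a3 lie to the right near 0 on the vertical scale, and Col4a5 and Col14a1 lie below the diagonal.

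No collagen gene was called for KGF over the 10 arrays. The count was 0 of 42 in limma's test, where 0.00550% of all genes, that is 1 gene, was called. At an unadjusted p under 0.05 there were 2 collagen genes among 1466 genes. Col15a1 gave 0.31 ± 0.12, positive in 4 of 5 pairs (adjusted p = 0.54), and Col4a4 gave -0.30 ± 0.13, negative in 4 of 5 pairs. Differences of the 42 ran from -0.30 to 0.41 with a median SE of 0.11, and none passed. The highest, that of Col19a1 (0.41), had an SE of 0.23. With days 17 and 24 alone, 0 collagen genes and 65 genes in all were called. The interaction of KGF with DCI was called for 0 collagen genes and 0% of all genes. At an unadjusted p under 0.05 it gave 1 collagen gene, Col24a1 (-0.50 ± 0.20), among 267 genes, with a median SE of 0.24.

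In the cultures with both treatments, as differences of 1 array from 1 control array with no test, 2 collagen genes differed at least 2-fold at day 17, 1 higher and 1 lower, where 2.93% of all genes did (1.76% higher and 1.17% lower). At day 24 it was 0, where 4.75% of all genes did (2.20% higher and 2.56% lower). Col15a1 differed by 1.15 at day 17 and 0.59 at day 24, and Col8a1 by -1.50 and -0.93. At 1.5-fold there were 6 collagen genes at day 17, where 8.21% of all genes passed, and 13 at day 24, where 12.7% did. Col4a1 differed by 0.71 and 0.34, while Col4a5 differed by -0.44 and -0.98, and Col17a1 by 0.54 and 0.84.

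Collagen chains need hydroxylation, folding and secretion before they assemble. The list counts that follow stand against 42.4% of all genes called to day 17, 37.3% from day 17 to 24 and 15.4% for DCI. Of 19 genes for these steps, 8 were higher and 3 lower from day 8 to day 17, led by Tmem38b, an endoplasmic reticulum ion channel (0.97 ± 0.16), and Crtap, a subunit of the prolyl 3-hydroxylase complex (0.91 ± 0.10). From day 17 to 24, 5 were higher and 2 lower. With DCI 5 of the 19 were higher and 0 lower, with a median of 0.14 against -0.01 over all genes. P4ha2, a prolyl 4-hydroxylase subunit that makes the triple helix stable, read 8.73 and 9.08 at day 17 without DCI and 9.76 and 9.78 with DCI, and 9.69 and 10.17 without and 10.56 and 10.76 with DCI at day 24. Its DCI difference was 0.80 ± 0.10 (adjusted p = 0.000425). Plod2, the lysyl hydroxylase of crosslink sites, was higher by 0.40 ± 0.06, P4ha1 by 0.28 ± 0.08 and Mia3, which packs procollagen for export, by 0.26 ± 0.06.

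Genes for cleavage and crosslinking had 4 of 10 higher and 1 lower from day 8 to 17. Lox, the lysyl oxidase that crosslinks fibrils, read 6.64 and 6.89 at day 8 and between 11.75 and 12.06 at day 17, a rise of 4.96 ± 0.10 (adjusted p = 9.38e-11). It rose further by 0.38 ± 0.07 to day 24, when 4 of the 10 were higher and 1 lower. With DCI 1 was called, Adamts3, an amino-propeptidase of procollagen, which was higher by 0.64 ± 0.14. Of 16 proteoglycans and glycoproteins bound to fibrils, 12 were higher and 2 lower at day 17, with a median of 2.11. Dermatopontin (Dpt) rose by 6.22 ± 0.30, osteoglycin (Ogn) by 5.42 ± 0.12 and biglycan (Bgn) by 5.21 ± 0.07. With DCI 3 were higher, including Dpt (1.00 ± 0.22), and 3 lower, including fibromodulin (Fmod, -0.90 ± 0.10) and Thbs2 (-0.53 ± 0.11). The Dpt difference was 1.53 ± 0.07 at day 17 and 0.46 ± 0.07 at day 24. Its change between days of -1.08 ± 0.10 was called in limma's test (adjusted p = 0.00082).

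Collagen receptors had 5 of 9 higher and 1 lower at day 17. With DCI 0 were higher and 3 lower. Lair1, an inhibitory collagen receptor of immune cells, read 5.30 and 4.42 at day 17 without DCI and 3.49 and 3.70 with DCI, and 4.92 and 5.08 without and 3.78 and 3.41 with DCI at day 24, a difference of -1.33 ± 0.16. It moved with the macrophage markers given above. The integrin chain Itga10 was lower by 1.27 ± 0.17 and Itgb1 by 0.31 ± 0.09. TGF-beta signalling is a well-known inducer of collagen genes. Of 10 of its ligands, receptors and targets, 3 were higher and 5 lower at day 17, 4 higher and 1 lower from day 17 to 24, and 4 higher and 1 lower with DCI. Its target Ccn2 read 10.50 and 10.45 at day 17 without DCI and 9.42 and 9.44 with DCI, and was lower with DCI by 0.93 ± 0.07. The co-receptor gene Tgfbr3 was higher by 1.01 ± 0.08, the ligand gene Tgfb2 by 0.78 ± 0.10 and another target, Tgfbi, by 0.44 ± 0.08. Fibroblast and mesenchyme markers had 5 of 10 higher and 4 lower at day 17, with Fap rising by 5.19 ± 0.27, S100a4 by 3.86 ± 0.29 and Twist2 falling by 2.10 ± 0.11, beside the rise of the fibrillar and fibril-bound genes. The summed fibroblast level was 13.07 to 13.24 at day 8, and later 12.96 to 13.31 without DCI and 12.92 to 13.11 with DCI. The part of these cells in the rise of the fibrillar and fibril-bound genes was not tested. Of 8 control genes of general use, 3 were higher and 1 lower at day 17 against day 8, led by B2m (1.89 ± 0.08) and Hprt (1.13 ± 0.07). From day 17 to 24, 3 were higher and 3 lower, led by B2m (0.56 ± 0.06). With DCI 0 were higher and 2 lower, B2m (-0.39 ± 0.06) and Actb (-0.22 ± 0.04).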

How the data were processed

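RNA from 10 cultures, 1 array per condition, was measured on Affymetrix arrays with 45101 probe sets. The deposited values are log2 signals after RMA (background correction, quantile normalization and probe summary), run in Bioconductor per the labels and the submitters' processing notes. Its version, and whether it was run on all arrays at once, is not given in the sources used here. Of the probe sets 34945 carried a single gene symbol, 932 several and 9160 none, and 64 were controls. Probe sets with several or no symbols were left out.

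Each of 18193 genes was represented by its brightest probe set on average. limma 3.58.1 in R 4.3.3 fitted day, KGF and DCI over the 10 arrays (5 residual degrees of freedom), with a mean trend in eBayes and Benjamini-Hochberg adjustment over all genes. DCI within a day, DCI by day and KGF by DCI were fitted on the 8 arrays of days 17 and 24 (3 residual degrees of freedom). With 1 array per condition the p-values measure only the departure from additivity, which may be technical. An adjusted p under 0.05 was the threshold. The code was tested on simulated data.

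Every collagen gene could be named, up to 4 genes past the threshold with the largest differences from each pathway list, and up to 3 from a marker list beside a collagen class it moved with. The members and lists were chosen with earlier results of these data known. Alternatives were the variance prior, another quantile normalization, dim genes left out, other probe sets, other thresholds, arrays left out and, added after seeing the data, the dap control as a covariate. Plots used Python 3.11.15 with matplotlib 3.10.9.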

Additional observations from a re-analysis of the deposited data

Results flagged for a closer look

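For 4 collagen genes the DCI difference was not the same on both days by a test of that difference (limma, day by DCI term, adjusted over all genes). The difference at day 24 minus that at day 17 was -0.57 for Col6a3, -0.64 for Col6a2, -0.61 for Col4a5 and -0.53 for Col14a1 on the log2 scale. For Col6a3 and Col6a2 a higher level with DCI at day 17 was not called at day 24, and for Col4a5 and Col14a1 the lower level with DCI was more marked at day 24. These calls rest on few arrays. Over the 8 omissions of an array the call was kept in 5 for Col6a3, in 2 each for Col4a5 and Col6a2 and in 0 for Col14a1. Without a mean trend in the variance prior none of the 4 was called. With the dap covariate none of the 4 was called. That covariate separates the arrays with DCI at day 17 from those without, so that the fit can hardly tell dap from DCI.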

How the results depend on the processing

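No paired analysis was possible because the labels give no replicate numbers to use as a block. Arrays are matched by day and KGF, and both are terms of the fit. The number of arrays limits the precision. Requiring a 2-fold change besides the adjusted p left 1 collagen gene for DCI, 18 from day 8 to 17, 3 from day 17 to 24, 0 for DCI by day, 1 for DCI at day 17 and 2 at day 24. For these counts, and those of the prior, probe set, dap and left-out-array settings below, shares of all genes are not given. They show how the calls depend on the setting and no more. Without a mean trend in the variance prior, or after averaging each gene's probe sets, 6 were called for DCI at day 17 under each, and for DCI by day 0 and 1. With the dap covariate the counts were 0 for DCI at day 17, 0 for DCI by day and 3 for DCI at day 24. That covariate separates the arrays with DCI at day 17 from those without, so that the fit can hardly tell dap from DCI. Under it the day 17 DCI difference reversed for Col14a1 (0.34), Col15a1 (-0.19) and Col4a5 (1.16). In the least alike other probe set the sign reversed for Col5a3 with DCI (-0.32), for Col12a1 (-0.10) and Col26a1 (-0.0044) to day 17, and for Col26a1 (0.052) and Col6a4 (0.044) to day 24. Leaving out 1 array at a time gave 8 to 12 collagen genes for DCI, 25 to 33 from day 8 to 17, 16 to 23 from day 17 to 24, 0 to 5 for DCI by day, 5 to 12 for DCI at day 17, 6 to 11 at day 24, and 0 to 0 for KGF and for KGF by DCI. A limit of 1.5-fold gave 6 and 13 collagen genes for both treatments against control at days 17 and 24 (8.21% and 12.7% of all genes).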
